A study of Mus musculus with 12 samples.

Results

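The genes described here serve antigen presentation by major histocompatibility complex (MHC) class II. The list names 8 of them: *H2-Aa*, *H2-Ab1*, *H2-Eb1*, *Cd74*, *Ciita*, *H2-DMa*, *H2-DMb1* and *H2-DMb2*. Of these, 7 had a row among the 13232 genes of the deposited table, and expression of *H2-DMb2* was not analysed here. The set was picked because class II genes were higher in the high-fat-diet libraries, so it was chosen on the very comparison that these libraries allow. The differences between diets are therefore given for the members as a description with no test.

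RNA was sequenced from wild-type bone marrow-derived macrophages, which are cells grown out of marrow with the growth factor M-CSF (20 ng/ml). The donors were C57B6/J mice given either a normal diet, called ND below, or a high-fat diet (HFD), and their age and time on the diet are not given in the sources used here. The cells were moved to serum-free medium on day 4 and spent 1 h at 1% oxygen on day 7, so hypoxia is common to all libraries compared. Of 12 libraries in the labels, the table holds 6, with 3 from ND and 3 from HFD, and the 6 libraries kept at normal oxygen were not used here. The labels do not say whether replicates come from separate mice, so p-values measure only the spread between these libraries.

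MHC class II molecules are pairs of an alpha and a beta chain that display peptides from taken-up material to CD4 T cells. The pairs assemble with the invariant chain (*Cd74*), which blocks the groove until lysosomal proteases trim it, and H2-DM then exchanges the last fragment for a peptide. The transactivator CIITA switches these genes on together through proteins bound at the X and Y boxes of their promoters, and interferon-gamma is the classical inducer of *Ciita* in macrophages. Mice of the C57BL/6 background make the I-A pair (*H2-Aa* with *H2-Ab1*) but do not display I-E, because the promoter of its alpha chain gene is deleted, although *H2-Eb1* for the I-E beta chain is intact.

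Promoter stretches are shown first because the X and Y boxes are what these genes are known to share in their control. RefSeq (GRCm38.p6) gave windows of 300 bases, from 250 before to 50 after a transcription start, for 5 of the 8 members. *H2-Ab1*, *Cd74* and *Ciita* had no window in the set used here, so their promoters were not examined. That says nothing of whether RefSeq itself holds these genes. The 150 bases before the start, 5′ to 3′ on the gene's strand, lie at chr17:34287824-34287973 (minus strand) for *H2-Aa* and chr17:34305717-34305866 (plus) for *H2-Eb1*. Those of *H2-DMb1* lie at chr17:34153041-34153190 (plus) and those of *H2-DMb2* at chr17:34145099-34145248 (plus). Capitals mark the letters searched for the X box, AGNNACNGA, and for the Y box, ATTGG, on either strand (CCAAT is the Y box on the opposite strand).
H2-Aa: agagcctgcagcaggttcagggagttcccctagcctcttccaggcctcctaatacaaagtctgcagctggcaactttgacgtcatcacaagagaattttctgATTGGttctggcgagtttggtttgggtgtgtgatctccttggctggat
H2-Eb1: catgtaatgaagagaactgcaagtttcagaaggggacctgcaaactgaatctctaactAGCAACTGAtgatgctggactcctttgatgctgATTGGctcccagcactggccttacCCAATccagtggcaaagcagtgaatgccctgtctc
H2-DMb1: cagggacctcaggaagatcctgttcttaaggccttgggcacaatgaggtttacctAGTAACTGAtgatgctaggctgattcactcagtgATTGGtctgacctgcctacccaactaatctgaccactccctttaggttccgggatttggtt
H2-DMb2: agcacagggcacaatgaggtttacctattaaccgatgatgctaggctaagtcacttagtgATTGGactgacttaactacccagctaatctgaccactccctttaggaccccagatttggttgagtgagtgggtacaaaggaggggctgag

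*H2-Eb1* and *H2-DMb1* held an X box followed on the same strand by a Y box 10 to 30 bases later, the order in which the boxes stand in class II promoters. The gap between the boxes was 24 bases in *H2-Eb1* and 25 in *H2-DMb1*, and the X box began at base -92 and base -95 from the start. Such a pair of boxes was found in 0.228% of 32851 windows of the same length. Alone, the X box letters were in 17.7% of those windows and the Y box letters in 37.4%, so a single match is common. The stretches of *H2-Eb1* and *H2-DMb1* share a run of 13 bases, aactgatgatgct, which starts inside the X box. *H2-Aa* and *H2-DMb2* matched the Y box and not these X box letters, which says only that the letters are not in the window. Of 2 windows for *H2-DMa*, 1 held a Y box and neither an X box.

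Letters of the interferon-gamma activated site (TTCNNNGAA) stood in the *H2-DMb2* window, at the same place on both strands, and in 8.30% of all windows. Those of the IRF element (GAAANNGAA) were in none of the members' windows and in 8.56% of all. A match is a description and shows neither binding nor use of a site.

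**Figure D1:**
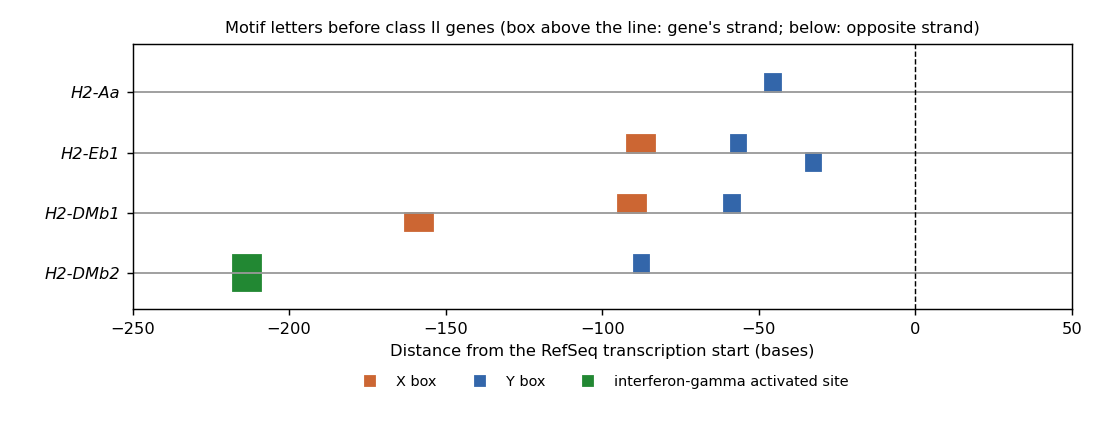
Motif letters in the RefSeq windows of 4 class II genes, by distance in bases from the transcription start (dashed line). Boxes above a line are on the gene's strand and boxes below it on the opposite strand. *H2-Eb1* and *H2-DMb1* have an X box starting at -92 and -95 with a Y box 24 and 25 bases behind it.

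The deposited values are a normalized signal, estimated gene counts scaled by a size factor for each library. Estimated depth was 19046100 to 24491500 reads per library, and each HFD library was deeper than each ND library before scaling. In each diet replicate 3 was the library farthest from the other 2. Differences between libraries were 13.2 to 21.3 times the counting variance within a diet and 8.84 to 40.4 times between diets, and the smallest value was between ND replicate 3 and HFD replicate 1. No 2 libraries agreed within sampling noise. All 8 macrophage markers had a row (*Adgre1* 25890 to 32633, *Csf1r* 44323 to 55142 in signal). *Adgre1* was higher in every HFD library (29047 to 32633) than in any ND library (25890 to 28364), and *Cd14* was lower (2981 to 3678 against 3969 to 4019, log2 difference -0.29, SE 0.08). Neither passed the threshold (limma adjusted p 0.520 and 0.281). The markers had a summed signal of 345313 to 395574 in ND and 342872 to 402478 in HFD, most of it from *Lyz2*. Over all genes the median log2 difference, HFD minus ND, was -0.0034, with 6470 genes higher in HFD and 6762 lower by any amount. In limma, 0 of 13232 genes (0%) passed a Benjamini-Hochberg adjusted p of 0.05. Without adjustment, 5.40% were at p under 0.05 and higher and 5.18% lower in HFD. The count of 0 became 233 (1.76%) with ND replicate 3 left out, stayed at 0 with HFD replicate 3 left out and became 1133 (8.56%) with array weights, which let noisier libraries count less.

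The chains of the class II molecule and the invariant chain were higher in every HFD library than in any ND library, whereas *Ciita* and the H2-DM chains overlapped. The lowest HFD value exceeded the highest ND value for 4 of 7 members, *H2-Aa*, *H2-Ab1*, *H2-Eb1* and *Cd74*, against 7.44% of all genes. No member lay wholly below (7.07% of all genes). Because the rule used this contrast, nothing is read from that share. All 7 members had a mean higher in HFD, from 0.03 to 0.70 on the log2(signal + 1) scale with a median of 0.48. Without ND replicate 3 the same 4 genes stood above, as did 17.7% of all genes, and the median was 0.60.

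*H2-Aa*, on chromosome 17 at 34282744 to 34287823 (GRCm38, minus strand), encodes the alpha chain of I-A and differed most. Its signal, given here and below for replicates 1, 2 and 3 in turn, was 3195, 3100 and 3866 in ND and 4971, 6230 and 5284 in HFD. Every HFD library was above every ND library, with ND replicate 3 the highest of its diet. The means were 3387 ± 418 and 5495 ± 656 (SD, n = 3 libraries each), a fold of 1.62 or 0.70 in log2 (SE 0.10, limma's moderated standard error).

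*H2-Ab1* (chromosome 17, 34257689 to 34269419, plus strand) encodes the beta chain that pairs with it. Its signal was 3500, 3629 and 4557 in ND and 5539, 6119 and 4608 in HFD. The diets did not overlap, but the highest ND library, replicate 3, and the lowest HFD library, replicate 3, lay 1.1% apart, a gap within counting error (1.69% at its lowest value). The means were 3895 ± 577 and 5422 ± 763 (SD, n = 3 each), a log2 difference of 0.48 (SE 0.12). The ratio of *H2-Aa* to *H2-Ab1* signal was 0.848 to 0.913 in ND and 0.897, 1.02 and 1.15 in HFD. HFD replicate 3 thus had a middle level of the alpha chain transcript among HFD libraries but the lowest level of its beta chain transcript.

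*H2-Eb1* (chromosome 17, 34305867 to 34316674, plus strand), the beta chain gene of I-E, had a signal of 2483, 2488 and 3323 in ND and 4272, 4863 and 3644 in HFD. Again the diets were apart, and replicate 3 was the highest ND and the lowest HFD library. The log2 difference was 0.63 (SE 0.13), from means of 2764 ± 484 and 4260 ± 609 (SD, n = 3 each). The annotated antisense gene *Gm20513* overlaps *H2-Eb1*. The kit keeps strand, but the sources used here do not state whether the counting did, so reads of the 2 genes cannot be told apart.

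*Cd74*, the invariant chain gene on chromosome 18, had a signal of 17050, 15224 and 19718 in ND and 24820, 28351 and 21783 in HFD. Its order of libraries within HFD was that of *H2-Ab1* and *H2-Eb1*, with replicate 2 highest and replicate 3 lowest. The means were 17331 ± 2260 and 24985 ± 3287 (SD, n = 3 each), a log2 difference of 0.53 (SE 0.12). The ratio of *Cd74* to *H2-Ab1* signal was 4.20 to 4.87 in ND and 4.48 to 4.73 in HFD, so the invariant chain and the beta chain transcripts kept overlapping ratios.

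*Ciita* (chromosome 16, 10480059 to 10528418, plus strand), the transactivator of the set, differed little. Its signal was 882, 753 and 747 in ND and 898, 987 and 751 in HFD, so HFD replicate 3 lay among the ND libraries. The log2 difference was 0.14 (SE 0.11), from means of 794 ± 76.4 and 879 ± 120 (SD, n = 3 each). It was 0.05 with HFD replicate 2 left out and 0.25 with HFD replicate 3 left out. *Dexi*, which overlaps *Ciita* on the opposite strand, had a signal of 177 to 209 in ND and 176 to 214 in HFD.

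The H2-DM chains, which form the peptide exchange factor, also overlapped between diets. *H2-DMa* (chromosome 17, 34119541 to 34139101, plus strand) had a signal of 1039, 890 and 855 in ND and 1018, 1026 and 802 in HFD. The highest of the 6 values was in ND and the lowest in HFD. The log2 difference was 0.03 (SE 0.11), from means of 928 ± 97.6 and 949 ± 127 (SD, n = 3 each), and it was -0.03 without ND replicate 3 and 0.14 without HFD replicate 3. *Brd2*, which overlaps the annotated *H2-DMa* on the opposite strand, had a signal of 5945 to 6345 in ND and 5888 to 6475 in HFD.

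*H2-DMb1* (chromosome 17, 34153072 to 34160230, plus strand), the beta chain of H2-DM, had a signal of 755, 719 and 706 in ND and 798, 900 and 711 in HFD. Only HFD replicate 3 fell within the ND range. The log2 difference was 0.14 (SE 0.09), from means of 727 ± 25.7 and 803 ± 94.6 (SD, n = 3 each). It was 0.05 with HFD replicate 2 left out and 0.22 with HFD replicate 3 left out. Of its 1604 distinct annotated stretches of 75 bases, the read length, 15.8% also occur in *H2-DMb2*, so its level is uncertain by the reads that the authors' counting could split. No stretch of the other 6 members in the table occurs in a transcript of another gene.

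**Figure D2:**
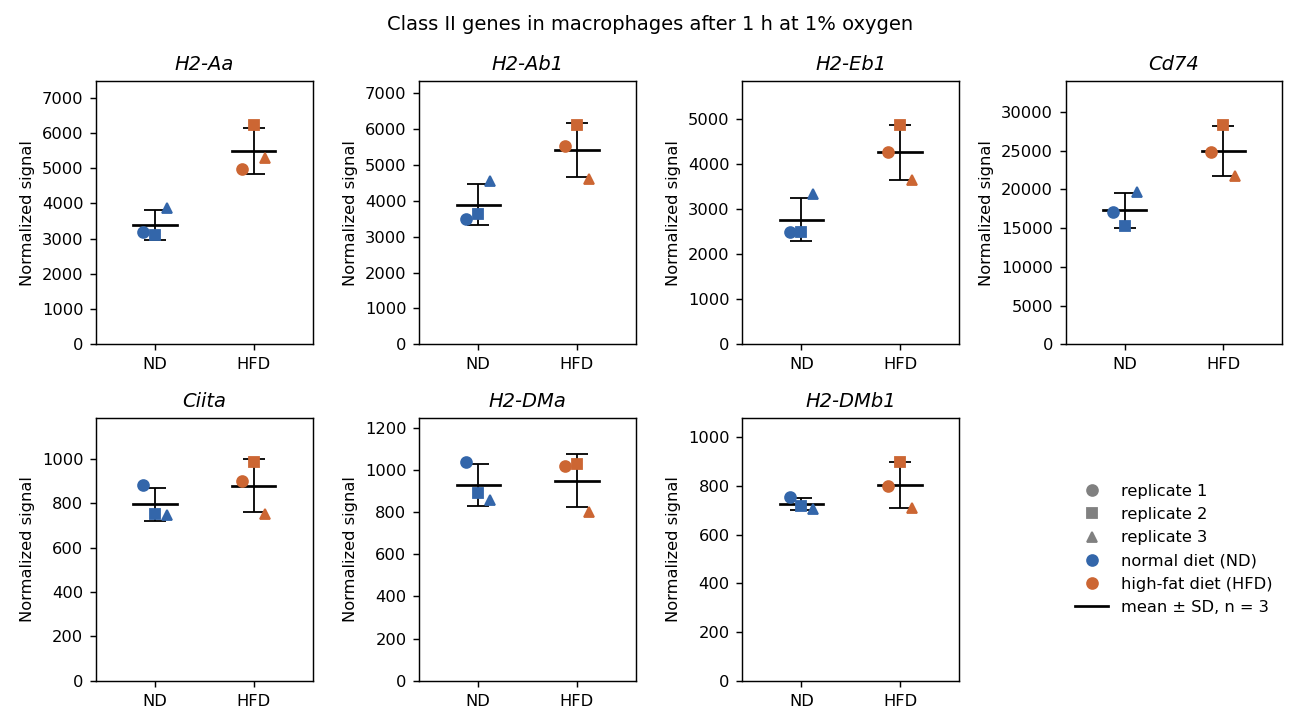
Normalized signal of the 7 class II genes in each library after 1 h at 1% oxygen (points, with shape for the replicate number) with the mean and SD of 3 libraries per diet. In the upper row (*H2-Aa*, *H2-Ab1*, *H2-Eb1*, *Cd74*) the HFD points stand above all ND points. In the lower row (*Ciita*, *H2-DMa*, *H2-DMb1*) HFD replicate 3 falls to the ND level or below.

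The lowest estimated read number was 598, for *H2-DMb1* in ND replicate 3, where counting error alone is 4.09% of the value, against 1.78% at the lowest *H2-Aa* value and 0.80% at the lowest *Cd74* value. Without molecular identifiers, PCR copies count as reads, so these errors cover counting only.

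Per kilobase of annotated exon, the order of levels in ND was *Cd74* (12239 ± 1596), *H2-Ab1* (3214 ± 476), *H2-Aa* (3003 ± 370), *H2-Eb1* (1539 ± 269), *H2-DMb1* (518 ± 18.3), *H2-DMa* (348 ± 36.6) and *Ciita* (96.1 ± 9.24; signal per kilobase, SD, n = 3 each). The I-A chains did not differ beyond their spread, and the other neighbours in this order did not overlap. In HFD the order was the same except for the I-A chains, with *H2-Aa* at 4871 ± 581 and *H2-Ab1* at 4473 ± 629, again within their spread. *Cd74* stood at 17644 ± 2322 per kilobase in HFD and *Ciita* at 106 ± 14.5. The invariant chain transcript was thus the most abundant of the set per length and that of the transactivator the least in both diets.

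The order of libraries within a diet was not used by the rule. ND replicate 3 was the highest ND library for 4 members (*H2-Aa*, *H2-Ab1*, *H2-Eb1* and *Cd74*) and not for *Ciita*, *H2-DMa* and *H2-DMb1*, where it had the lowest value. That lowest place is not resolved, since ND replicate 2 lay only 0.7% (*Ciita*), 4.0% (*H2-DMa*) and 1.8% (*H2-DMb1*) higher, about the counting error or less. Its log2 value, less the mean over the 6 libraries, was -0.15 to -0.0022 for the former, where ND replicates 1 and 2 were at -0.47 to -0.28. For the latter it was -0.15 to -0.11, against -0.14 to 0.15 in ND replicates 1 and 2. In HFD the members did not part in this way. Replicate 2 was highest for 7 of 7 members and replicate 3 lowest for 6, the exception being *H2-Aa*, lowest in replicate 1. The share of all genes with these orders, in ND or HFD, was not computed. The counts are therefore not read as a trait of the members.

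Relative to the transactivator, the ratio of *H2-Aa* to *Ciita* signal was 3.62, 4.12 and 5.17 in ND and 5.54, 6.31 and 7.04 in HFD. The ratio of *H2-Aa* to *H2-DMa* was 3.07, 3.48 and 4.52 in ND and 4.88, 6.07 and 6.59 in HFD. Neither ratio overlapped between the diets, and in both ND replicate 3 lay nearest to HFD. These ratios come from the values that chose the set and are a description.

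**Figure D3:**
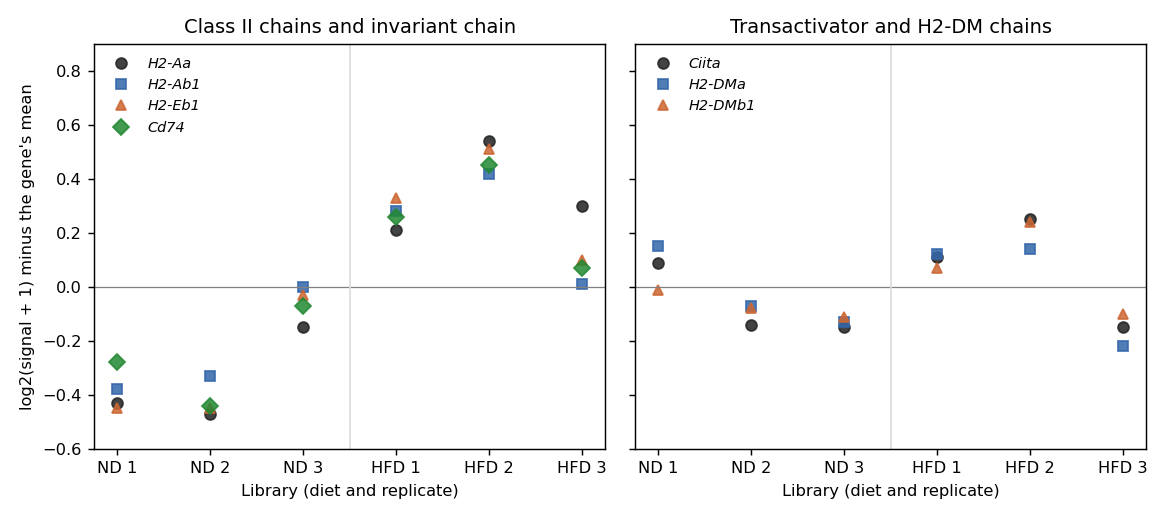
Log2(signal + 1) of each gene less its mean over the 6 libraries, by library, for the class II chains and invariant chain (left) and for the transactivator and H2-DM chains (right). On the left ND replicate 3 is the highest ND library for each gene, and on the right it is not.

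Other class II chains of the list (*H2-Oa* and *H2-Ob*, which form the H2-DM inhibitor H2-DO, with *H2-Eb2* and the I-E alpha chain gene) were not analysed here. Besides these, 5 lists of the pathway had 31 genes in the table. None passed the threshold in either direction (limma, Benjamini-Hochberg adjusted p 0.145 to 0.991). Before adjustment, 4 were higher and 3 lower at p under 0.05, where 5.40% and 5.18% of all genes were. With ND replicate 3 left out 2 passed (1.76% of all genes), and with array weights 5 (8.56% of all genes). The median log2 difference was -0.03, with 13 higher and 18 lower. All HFD libraries stood above all ND libraries for 4 and below for 2, against 7.44% and 7.07% of all genes.

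The proteases and other proteins that process antigen and the invariant chain were in the table for 8 of 8 genes. Of these, 7 were higher in HFD by any amount (median log2 difference 0.09), as were 6470 of 13232 genes. With limma, 0 were called in either direction. At an unadjusted p under 0.05, 2 were higher, as were 5.40% of all genes. Those 2 were *Ctsl* and *Ifi30*. *Ctsl*, cathepsin L, a lysosomal cysteine protease, had a signal of 16116, 17848 and 21381 in ND and 25339, 30255 and 29517 in HFD. Every HFD library was above every ND library. The log2 difference was 0.63 (SE 0.11, limma adjusted p 0.145).

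*Ifi30*, the lysosomal thiol reductase GILT that opens disulfide bonds of antigens, had a signal of 1388, 1513 and 1807 in ND and 2110, 2601 and 2152 in HFD. Here too the diets did not overlap, and ND replicate 3 was again the highest of its diet. The log2 difference was 0.55 (SE 0.11, limma adjusted p 0.184). Without ND replicate 3 both genes passed the threshold (*Ctsl* 0.74, limma adjusted p 0.0127; *Ifi30* 0.65, limma adjusted p 0.0163).

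*Ctss*, cathepsin S, the main invariant chain protease of antigen-presenting cells, was abundant and overlapped between diets, at 69994 to 78324 in ND and 71441 to 81263 in HFD (log2 difference 0.08, SE 0.09, limma adjusted p 0.802). *Lgmn*, an asparagine-specific lysosomal protease, had a log2 difference of -0.09 (SE 0.09), *Cst3*, the inhibitor cystatin C, of 0.10 (SE 0.08), and *Sppl2a*, which cleaves the remaining membrane stub of the invariant chain, of 0.06 (SE 0.05). For these 3 genes the limma adjusted p ran from 0.711 to 0.758. *Sppl2a* was the only other gene of this list whose diets did not overlap, at 5652 to 5841 in ND and 5956 to 6018 in HFD. Of all genes, 7.44% stood wholly above in HFD.

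The factors that bind the X and Y boxes were in the table for 7 of 7 genes, 2 higher and 5 lower (median -0.03), none called by limma and 2 higher at an unadjusted p under 0.05. These were subunits of NF-Y, which binds the Y box. *Nfya* was at 3156 to 3314 in ND and 3514 to 3729 in HFD, with no overlap (log2 difference 0.16, SE 0.06, limma adjusted p 0.392). *Nfyc* overlapped, at 292 to 391 and 365 to 440 (0.30, SE 0.12, limma adjusted p 0.429). The subunits of RFX, which binds the X box, had log2 differences of -0.15 (SE 0.09) for *Rfx5*, -0.11 (SE 0.10) for *Rfxap* and -0.03 (SE 0.12) for *Rfxank*, with limma adjusted p of 0.610, 0.749 and 0.958. *Rfx5* overlapped, with 382 to 425 in ND and 344 to 392 in HFD. *Rfxap* was slightly lower in all HFD libraries (171 to 190) than in all ND libraries (193 to 203).

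From interferon-gamma to *Ciita*, 8 of 9 genes were in the table, 2 higher and 6 lower (median -0.02), with 0 called by limma and 0 higher and 1 lower at an unadjusted p under 0.05. The receptor genes *Ifngr1* (0.01, SE 0.10) and *Ifngr2* (0.03, SE 0.06) and the factors *Irf1* (-0.05, SE 0.08) and *Irf8* (-0.03, SE 0.07) overlapped between diets, with limma adjusted p from 0.863 to 0.979. *Socs1*, an inhibitor of the pathway, was not analysed here.

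*Marchf1* and *Marchf8*, ubiquitin ligases that mark class II molecules and other surface proteins for degradation, had log2 differences of 0.12 (SE 0.09) and -0.03 (SE 0.06), with limma adjusted p of 0.690 and 0.892. Of the surface ligands that act beside class II on T cells, 6 of 7 were in the table, 1 higher and 5 lower (median -0.16), 0 called by limma and 2 lower at an unadjusted p under 0.05 (*Cd83* and *Icosl*). *Cd83*, which stabilizes class II and CD86 at the surface, was at 1664, 1962 and 1427 in ND and 1535, 1181 and 1157 in HFD, with HFD replicate 1 inside the ND range (-0.38, SE 0.13, limma adjusted p 0.361). The costimulatory ligands *Cd80* (-0.11, SE 0.13), *Cd86* (-0.12, SE 0.18) and *Cd40* (-0.21, SE 0.13) overlapped between diets, with limma adjusted p from 0.626 to 0.859. Whether these ligands differ from the class II chains in their response was not tested.

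**Figure D4:**
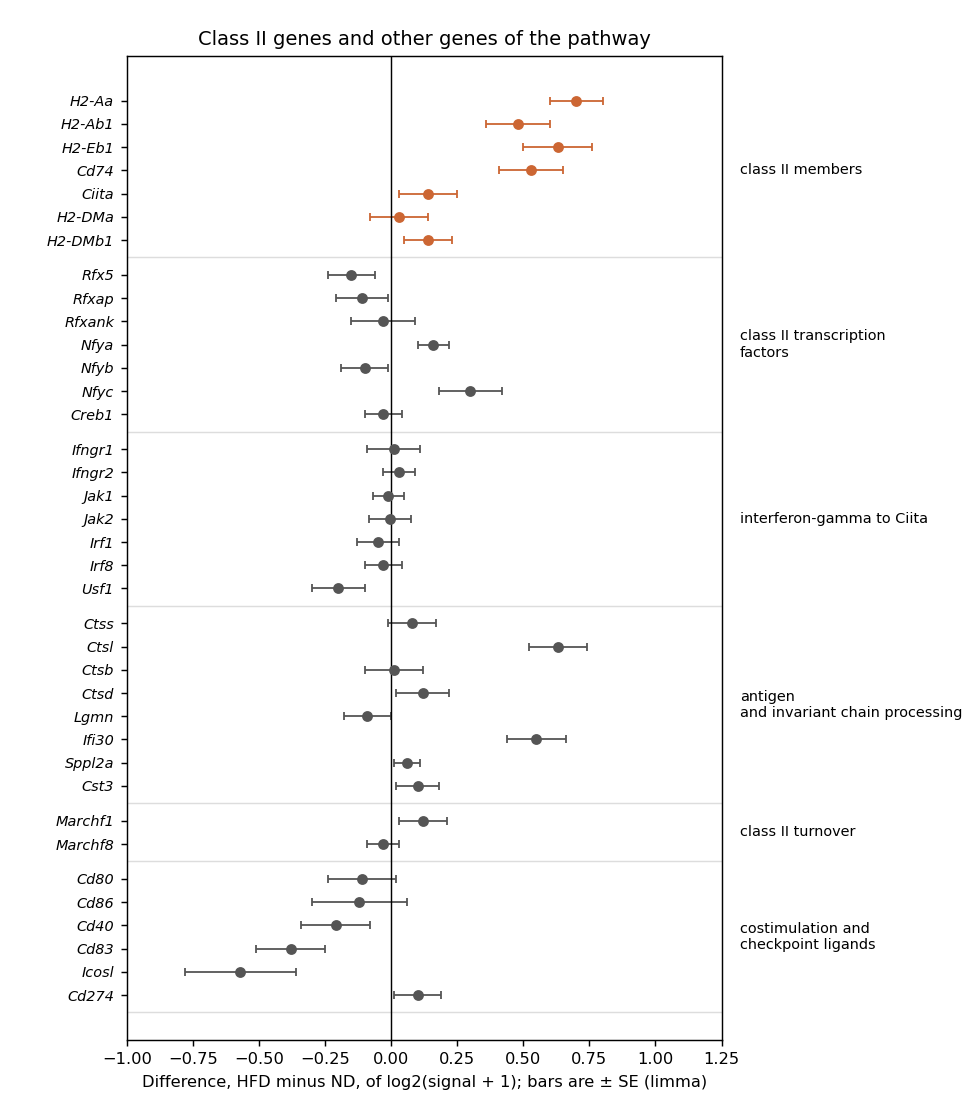
Difference between diets (HFD minus ND, log2(signal + 1), bars ± SE from limma, 3 libraries per diet) for the 7 class II genes (orange) and the other pathway genes reported here (grey), grouped by role. *Ctsl* (0.63) and *Ifi30* (0.55) lie at the level of the class II chains (0.48 to 0.70), and *Ciita*, *H2-DMa* and *H2-DMb1* lie at 0.03 to 0.14.

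In bulk RNA, fewer cells of a type and less RNA per cell cannot be told apart, so markers of other class II-bearing cells are given here. Of 10 dendritic cell markers 3 had a row. *Flt3*, *Zbtb46*, *Ccr7*, *Xcr1* and *Clec9a* were among the 7 without one. The 3 with a row summed to 2178 to 3066 in ND and 3009 to 3710 in HFD. *Itgax* (CD11c), found on dendritic cells and on macrophages, was at 1138, 1172 and 2131 in ND and 2072, 2899 and 3071 in HFD (log2 difference 0.90, SE 0.23, limma adjusted p 0.270). As for the class II chains, ND replicate 3 was its highest ND library. *Clec10a* went the other way (-0.50, SE 0.15, limma adjusted p 0.297), and *Batf3* was at 51.8 to 68.5 in all libraries.

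Of 8 B cell markers 2 had a row, *Ighm* and *Cd22*, summing to 2085 to 3228 in ND and 2127 to 2301 in HFD, and *Cd79a*, *Ms4a1* and *Pax5* were among the 6 with none. Most of the sum was *Ighm* (log2 difference -0.40, SE 0.15, limma adjusted p 0.41), and *Cd22* went the other way (0.32, SE 0.13, limma adjusted p 0.431). Plasmacytoid dendritic cell markers were in the table for 2 of 5 genes, with a sum of 4010 to 5082 in ND and 3921 to 4477 in HFD. Most of it came from *Tcf4*, which overlapped between diets (-0.14, SE 0.11, limma adjusted p 0.697). *Bst2* was lower in every HFD library (655 to 734) than in any ND library (836 to 928). Its log2 difference was -0.36 (SE 0.08, limma adjusted p 0.195). The part of these cell types in the class II levels was not tested. For other marrow cells, summed signal was 1712 to 2455 in ND and 2109 to 3430 in HFD for 6 of 10 neutrophil markers, and 177 to 549 and 52 to 337 for 3 of 7 stromal collagen and matrix genes. All 6 neutrophil markers had a mean higher in HFD, by 0.11 to 0.90 in log2, as had 6470 of 13232 genes. None of the 6 passed the threshold. The widest was *Mmp8*, a neutrophil collagenase, at 443, 463 and 452 in ND and 707, 1032 and 834 in HFD (0.90, SE 0.12, limma adjusted p 0.113). It was the only marker of the 6 whose diets did not overlap. The others ran from 0.11 (*Ltf*, SE 0.21) to 0.40 (*Lcn2*, SE 0.32). The part of neutrophils in the class II levels was not tested.

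By a rule of likeness, 5 non-member genes with a mean signal of at least 100 were sought whose centred log2 values over the 6 libraries lay closest to the mean profile of the 7 members. Among 10787 candidates these were *Gss* (glutathione synthetase), *Arrdc4* (an arrestin-domain protein), *Gng11* (a G protein gamma subunit), *Cryz* (a quinone reductase) and *Scarf1* (a scavenger receptor). Their mean absolute distance from the profile was 0.041, 0.060, 0.061, 0.068 and 0.070 log2 units. The members themselves lay 0.080 (*H2-Ab1*) to 0.186 (*H2-DMa*) from it, farther than these genes, because the mean falls between the class II chains and the H2-DM chains. *Gss* was at 256, 227 and 266 in ND and 309, 338 and 280 in HFD, a log2 difference of 0.30. The likeness rests on 6 libraries and says nothing of shared function or control.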

How the data were processed

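The deposited table holds a normalized signal per gene and library. The submitters' processing notes name STAR, Partek and mm10 (GRCm38), with no role or version, and the counter, annotation and any filter are not given in the sources used here. That the authors scaled estimated counts was read from the values: in each library 57.0% to 58.4% of values from 5 to 1000 lay within 0.02 reads of an integer multiple of the value of 1 read. Too many were fractions to recover reads, so no count test was run. Columns marked NC were taken as ND. Depth is the column sum over that value.

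Each gene's log2(signal + 1) was compared with limma 3.58.1 in R 4.3.3 (mean-variance trend, two-sided), adjusted by Benjamini-Hochberg over 13232 genes, with 0.05 as the threshold. A minimum mean of 1 removed 0 genes. The log2(signal + 1) scale understates changes of low genes. The procedure was tested on simulated data. GENCODE M21 (GRCm38) gave positions, exon lengths and shared stretches, and RefSeq the promoters. Members and lists were chosen with earlier results of these data known. Named were all members, the pathway genes fixed by name, and the 5 closest profiles, while *Nfya*, *Nfyc*, *Icosl*, *Dexi*, *Brd2* and the marker genes shown singly were named after their values were seen. Some list members are not reported singly here. Alternatives were 2 pseudocounts, 2 filters, 2 scalings, no trend, array weights, each library left out and a replicate block.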

Additional observations from a re-analysis of the deposited data

How the results depend on the processing

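Each of the 7 members kept its value within 1 SD of its libraries in 105 of 105 alternative values, though *H2-DMa* changed sign. The members' median log2 difference (0.48) was 0.39 to 0.60 without 1 library and 0.66 with array weights. The count of members with all HFD libraries above all ND libraries (4), an alternative added after seeing the data, was 4 to 6 without 1 library. It was 6 without HFD replicate 3, where *Ciita* and *H2-DMb1* joined and 12.6% of all genes met the rule, and the share of all genes rose to 17.7% without ND replicate 3.

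Genes called by limma (0) were 1133 with array weights, 31 with the replicate block and 0 to 233 without 1 library (233 with ND replicate 3 left out, 2 with HFD replicate 1 and 1 with ND replicate 2). Pathway genes called (0 of 31) were 5 with array weights (among them *Ctsl*, *Ifi30*, *Cd83* and *Icosl*), 1 with the replicate block (*Ctsl*) and 0 to 2 without 1 library (2, *Ctsl* and *Ifi30*, without ND replicate 3). The cause was not tested. The alternatives gave limma adjusted p of 0.00443 to 0.829 for *Ctsl* and 0.00461 to 0.860 for *Ifi30*. Deviations of same-numbered libraries correlated at -0.01, -0.04 and -0.00069, and 0 of 3 ND libraries correlated best with their own number. No pairing by number was seen, but with 3 libraries per diet this check cannot exclude it.

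Of 300 values for 20 pathway genes, 283 kept direction and call, 7 came to pass and 10 reversed, all of them small: *Ctss* (-0.01 after quantile normalization), and, with 1 library left out, *Rfxank* (3 of 6 values above 0, range -0.12 to 0.04), *Ifngr1* (3 of 6 below 0, range -0.08 to 0.13), *Cd86* (0.08 without ND replicate 2, range -0.30 to 0.08), and *Irf1* (0.02, range -0.11 to 0.02) and *Irf8* (0.05, range -0.09 to 0.05), both without HFD replicate 3. For the reversed values the limma adjusted p was 0.786 to 0.991.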
